A study of Mus musculus with 4 samples.

Results

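The 2 wild-type (WT) libraries of long-term haematopoietic stem cells (LT-HSCs) were taken from a table of 4 libraries, by their column names, and were used to describe which protein-coding genes were high, intermediate or silent. LT-HSCs are the bone marrow cells that renew themselves over a lifetime and give rise to every blood lineage. In the mouse they are usually sorted as cells with CD150 (encoded by Slamf1) on their surface, without CD48 and with little or no CD34, and they are known for slow division and low protein synthesis. The labels give the cells as LT-HSCs sorted by flow cytometry from the bone marrow of the tibia and femur, the genotype as wild-type, and polyadenylated RNA read after a protocol derived from Smart-seq2, a full-length method for small amounts of RNA. The other 2 libraries, from ATF4 KO mice, entered the rules for silent genes and for genes set apart. They also entered the spread over all 4 libraries. No difference between the genotypes was examined. Sort markers, age, sex, strain, the Cre line and the number of mice per library are not given in the labels used here. The spread between WT 1 and WT 2 may thus be technical, and no gene was tested.

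The table holds 4167 complete lines, mostly from chromosome 1, with the start of chromosome 2 up to position 31460738. Of these, 1464 were protein-coding genes with a single entry in the GRCm38 annotation, 1180 on chromosome 1 and 284 on chromosome 2. Values are log2 numbers of a transform that is not stated, and total reads are not in the table, so the depth is unknown here. Genes were compared with each other only after subtraction of the log2 of their exon length in kb, and this quantity is the level per kb below. A gene was taken as silent when listed at 0 in all 4 libraries, so the ATF4 KO libraries also decide this class. A gene with an ATF4 KO value more than 1 above both WT values was set apart as flagged. In some log2 transforms all libraries share a model, and a high value in 1 library can then draw up the others; whether that holds here was not tested.

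By these rules 19 genes were high (level per kb of at least 6), 204 intermediate (3 to 6), 722 low (under 3), 334 silent and 185 flagged. High and intermediate genes together were 15.2% of the protein-coding genes, and silent genes were 22.8%. High genes included Rgs18, Cd34 and Cd48 of blood cells beside the mitochondrial chaperonin Hspd1 and the replication helicase genes Mcm3 and Mcm6. Silent genes included all 7 lens crystallins of the table and a run of 10 neighbouring Serpinb genes. The levels just inside the upper limit were 6.05 for Bzw1, 6.06 for Tuba4a and 6.10 for Aamp, and those just outside were 5.95 for Mrpl41, 5.93 for Acadl and 5.91 for Lbr. At the lower limit Lman2l (3.001), Tada1 (3.003) and Nuf2 (3.004) stood just inside, and Stat4, Insig2 and Cyb5r1 just outside at 2.97. These limits cut a continuous range.

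Promoters of 6 genes are shown because the classes differed in their CpG content. CpG, a C followed by a G, is scarce in most of the mouse genome but dense at many promoters of broadly used genes. The sequences are the 250 bases before the RefSeq start of the gene, 5′ to 3′ on the strand of the gene, with each CG in capitals. Hspd1 and Mcm6 were high, Gfi1b was intermediate, Cd34 was high, and Crygc and Mstn were silent.
Hspd1 (GRCm38.p6, chr1:55088244-55088493, minus strand): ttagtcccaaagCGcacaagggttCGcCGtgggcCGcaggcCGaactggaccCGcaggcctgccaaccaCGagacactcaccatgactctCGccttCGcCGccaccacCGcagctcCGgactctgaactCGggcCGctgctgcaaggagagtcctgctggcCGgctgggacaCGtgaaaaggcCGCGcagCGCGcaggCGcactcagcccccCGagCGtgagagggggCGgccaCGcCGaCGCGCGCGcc
Mcm6 (GRCm38.p6, chr1:128359706-128359955, minus strand): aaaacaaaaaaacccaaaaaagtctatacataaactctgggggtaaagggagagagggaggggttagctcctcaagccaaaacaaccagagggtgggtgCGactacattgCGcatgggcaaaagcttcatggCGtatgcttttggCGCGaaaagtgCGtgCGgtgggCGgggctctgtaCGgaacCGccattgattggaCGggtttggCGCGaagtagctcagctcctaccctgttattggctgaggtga
Gfi1b (GRCm38.p6, chr2:28621983-28622232, minus strand): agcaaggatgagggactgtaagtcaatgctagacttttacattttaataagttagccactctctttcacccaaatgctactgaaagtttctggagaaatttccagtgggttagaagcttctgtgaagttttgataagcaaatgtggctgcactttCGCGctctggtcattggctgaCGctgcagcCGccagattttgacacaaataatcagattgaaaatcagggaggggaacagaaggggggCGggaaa
Cd34 (GRCm38.p6, chr1:194938571-194938820, plus strand): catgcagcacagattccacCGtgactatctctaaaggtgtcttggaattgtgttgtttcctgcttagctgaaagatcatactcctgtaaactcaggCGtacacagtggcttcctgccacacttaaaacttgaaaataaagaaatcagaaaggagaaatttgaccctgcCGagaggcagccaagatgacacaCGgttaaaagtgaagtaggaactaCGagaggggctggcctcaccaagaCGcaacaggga
Crygc (GRCm38.p6, chr1:65073533-65073782, minus strand): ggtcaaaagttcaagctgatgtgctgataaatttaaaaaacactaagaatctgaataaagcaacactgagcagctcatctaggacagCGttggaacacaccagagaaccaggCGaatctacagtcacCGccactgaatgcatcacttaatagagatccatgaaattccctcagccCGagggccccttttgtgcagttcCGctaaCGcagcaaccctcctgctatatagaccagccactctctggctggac
Mstn (GRCm38.p6, chr1:53061390-53061639, plus strand): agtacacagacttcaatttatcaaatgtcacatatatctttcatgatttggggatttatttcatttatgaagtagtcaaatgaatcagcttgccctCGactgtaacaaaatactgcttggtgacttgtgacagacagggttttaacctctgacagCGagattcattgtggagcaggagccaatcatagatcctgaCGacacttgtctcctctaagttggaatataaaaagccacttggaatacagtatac
The Hspd1 promoter held 30 CG, 0.965 times the number that its C and G content would give at random, and the Mcm6 promoter held 13 (0.797). Gfi1b and Cd34 held fewer, with 5 (0.421) and 6 (0.446). The genes shown do not stand for others of their kind. The helicase gene Mcm3, also high, held 5 (0.348), and the intermediate Rgs2 held 30 (0.96). Among the silent genes the lens crystallin Crygc held 6 (0.435) and the muscle growth inhibitor Mstn held 3 (0.326). The Cd34 promoter was thus as poor in CpG as that of the silent Crygc.

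Over all genes with a promoter in the RefSeq set (1204 of 1464), the median CpG ratio was 0.59. It was 0.754 in 16 high genes, 0.744 in 180 intermediate genes, 0.615 in 608 low genes and 0.266 in 244 silent genes. A ratio of at least 0.6 was found in 62.5% of the high, 68.3% of the intermediate, 51.6% of the low and 17.6% of the silent genes, against 49.1% of all promoters. The low class was mixed: genes with a deposited mean of at least 3 had a median of 0.75, and those under 3 had 0.472. The silent class thus had the lowest CpG ratio, and the high and intermediate classes differed little from each other. These are shares of neighbouring and partly related genes and were not tested.

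**Figure D1:**
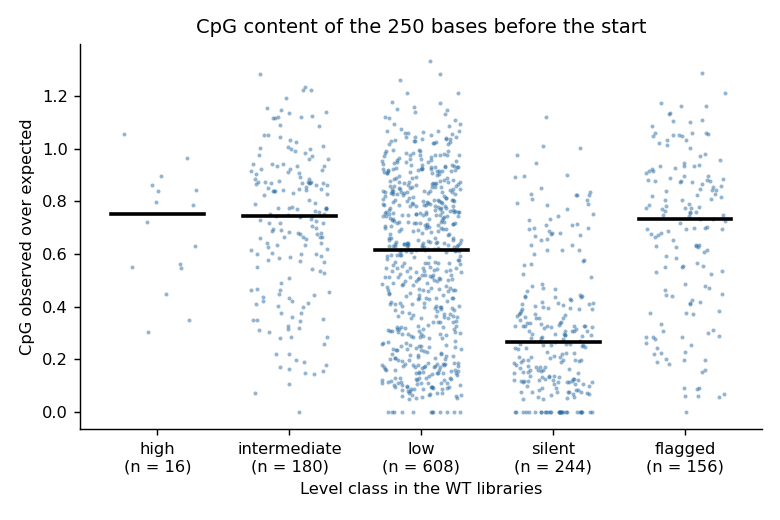
CpG observed over expected in the 250 bases before the start (y axis) for each protein-coding gene with a promoter sequence, by level class in the WT libraries (x axis). Each point is 1 gene and each bar a median; the silent genes have a median of 0.266 and the intermediate genes 0.744.

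Short motifs were counted in the same 250 bases on both strands. TATAAA, the core of the TATA box, was found in 16.4% of silent, 7.24% of low and 3.33% of intermediate promoters, in none of the 16 high promoters, and in 7.97% of all. GGGCGG, the GC box bound by Sp1, was found in 20.5% of silent, 51.0% of low, 54.4% of intermediate and 75% of high promoters, and in 45.6% of all. CCGGAAG, a form of the site of ETS factors, was in 3.28% of silent, 9.87% of low, 15.6% of intermediate, 12.5% of high and 9.05% of all promoters. CCAAT was in 50% of the 16 high, 37.8% of intermediate, 30.6% of low and 32.8% of silent promoters, and in 32.7% of all. GGGCGG and CCGGAAG hold CG, so their shares follow the CpG content in part. Of the promoters shown, those of Hspd1, Mcm6 and Gfi1b held GGGCGG and that of Mstn held TATAAA. A match is only a string of letters and not a measured site.

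The 2 WT libraries differed little from each other. Over 945 protein-coding genes with a value and no flag, Pearson's r across genes was 0.997 and Spearman's rho 0.998. In the 486 genes with a deposited mean of at least 3 they were 0.986 and 0.984, and r was 0.68 within means of 3 to 4 and within means of 4 to 5. These are descriptions across genes of 2 libraries. The median absolute difference was 0.0532, and 14 genes differed by more than 0.5. In the 486 genes the median absolute difference was 0.142 and the SD of the difference was 0.219. Genes of this range are the ones whose levels can be read.

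**Figure D2:**
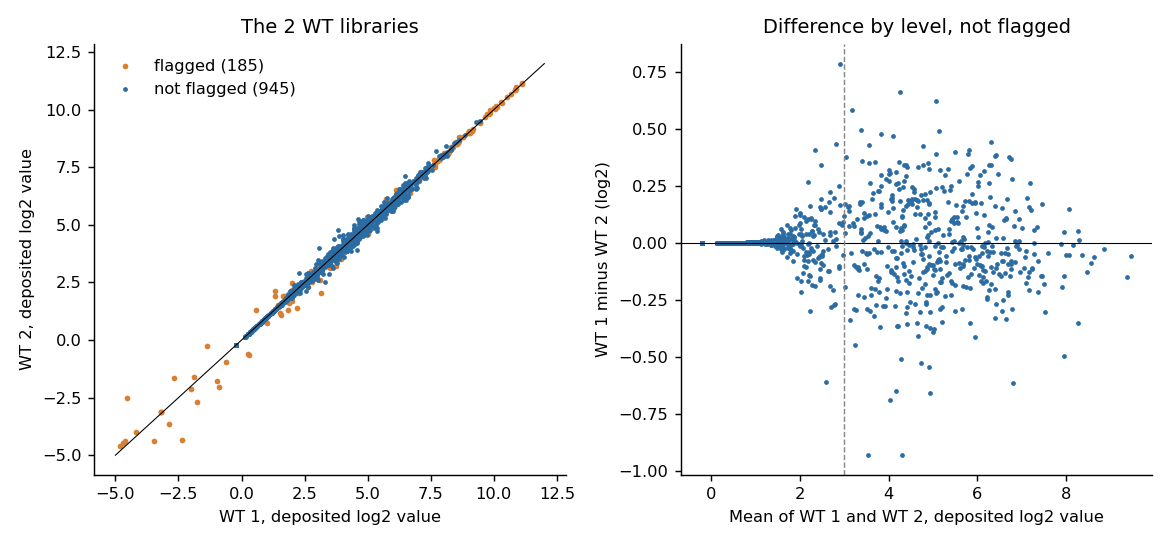
Left, the deposited log2 value of each protein-coding gene in WT 1 (x axis) and WT 2 (y axis), with the line of equality; flagged genes are orange. Right, the difference WT 1 minus WT 2 against the mean of both for 945 unflagged genes, with a dashed line at 3; the points close on 0 under a mean of 2.

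At low levels the values carried nearly no information of their own. For all 358 unflagged genes with a WT mean under 2, which are 37.9% of the 945, the values of the 4 libraries lay within 0.175 of each other, with a median spread of 0.0106. The lowest value, -0.21, was shared by 43 genes, among them the endothelial factor gene Sox17, the lymphatic factor gene Prox1 and the stress factor gene Atf3. Between WT means of 3 and 4 the median spread over the 4 libraries was 0.993. Genes with a mean under 2 were thus not listed at 0, and 43 of them lay below 0. Their order and their agreement between WT 1 and WT 2 cannot be read. Low below means a low level per kb, and members with a deposited mean under 3 are counted separately.

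**Figure D3:**
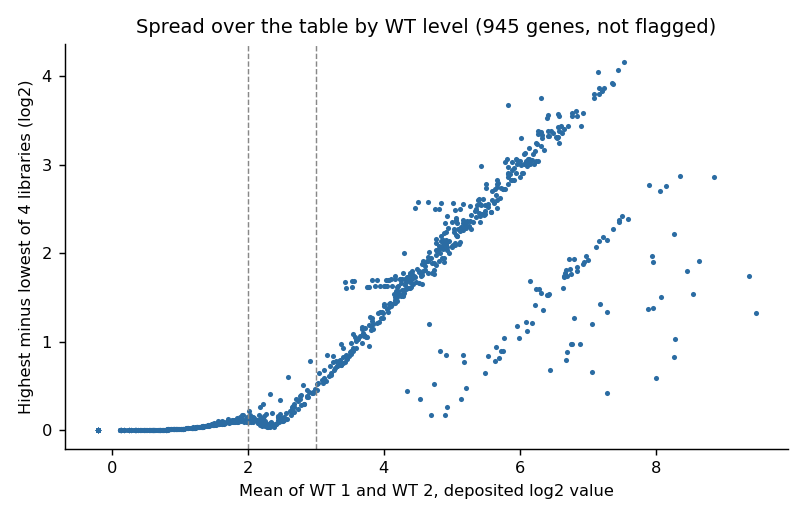
Highest minus lowest value of the 4 libraries (y axis, log2) against the mean of WT 1 and WT 2 (x axis, deposited log2 value) for 945 unflagged protein-coding genes, with dashed lines at 2 and 3. Each point is 1 gene; under a mean of 2 every gene lies within 0.175.

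The flag removed most of the genes with the highest deposited values. Of 31 protein-coding genes with a WT mean of at least 9, 29 were flagged, and so were all 14 with a mean of at least 10. They included the histone gene H3f3a (11.12 and 11.17 in WT 1 and WT 2), the actin nucleation gene Arpc2 (11.12 and 11.13), Ptma (10.89 and 10.99), the Fc receptor chain Fcer1g (10.89 and 10.89), the splicing gene Sf3b1 (10.84 and 10.84) and Dbi (10.83 and 10.84). The WT libraries were nearly equal in many of these. Among 99 flagged genes with a mean of at least 6, 30 differed by under 0.01, against 7 of 137 unflagged genes. The liver and plasma genes Apoa2 (9.16 in both), Cps1 (8.50 in both) and Itih2 (10.05 in both) were among the flagged. No level is claimed for a flagged gene, and a flag does not mean that WT cells lack the RNA.

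Set was the highest unflagged gene per kb. It encodes a nuclear histone chaperone that inhibits a phosphatase, and its deposited values were 9.30 in WT 1 and 9.45 in WT 2, a level per kb of 7.35 ± 0.11 (SD, n = 2 here and below). Rgs18, a regulator of G protein signalling in megakaryocytes and platelets, followed with 8.30 and 8.28 (7.27 ± 0.01 per kb). Tubb4b, a beta tubulin, had 8.09 and 8.44 (7.20 ± 0.25). The 3 genes cannot be placed in order, since they differed by less than the SD of Tubb4b. Set and Tubb4b have close copies elsewhere in the genome, and how reads of such copies were counted is not given in the sources used here.

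Genes of mitochondria and of protein folding were a part of the remaining high class. Hspd1, the chaperonin that folds proteins in the mitochondrial matrix, stood at 8.40 and 8.53 (7.07 ± 0.09 per kb). Its partner Hspe1, the lid of the same chaperonin, stood at 6.31 and 6.51 and was intermediate (5.85 ± 0.14). The difference per kb between these neighbouring genes was 1.25 in WT 1 and 1.18 in WT 2 (SD 0.05). Such an SD covers the spread between libraries and not the choice of exon length. Atp5c1, the gamma subunit of ATP synthase, had 7.81 and 8.01 (6.98 ± 0.14). The complex I gene Ndufb3 (6.31 per kb) was also high, and Mrpl41 of the mitochondrial ribosome lay just under the limit at 5.95. Creg1, a lysosomal glycoprotein, had 8.33 and 8.38 (7.12 ± 0.04 per kb), and Ssna1, which binds microtubules, 7.33 and 7.41 (7.02 ± 0.06).

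**Figure D4:**
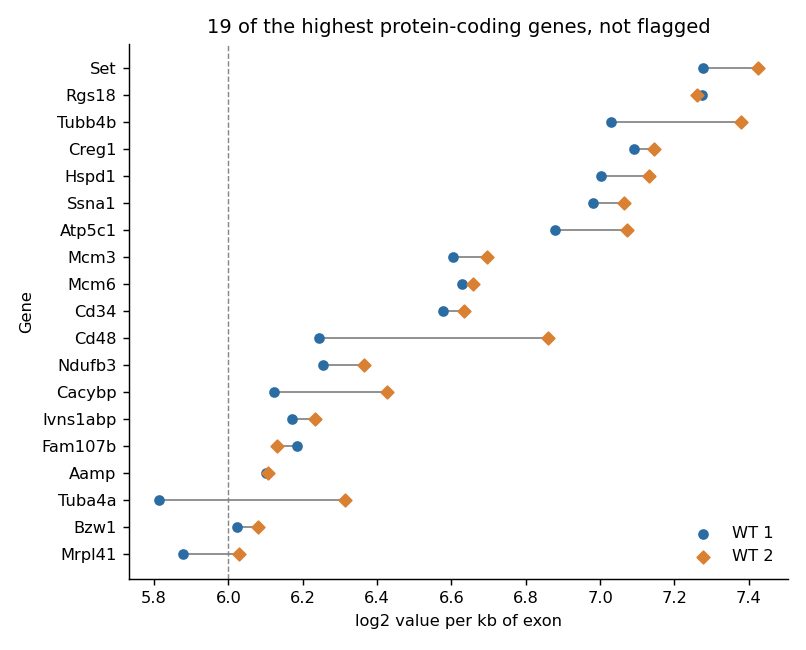
Level per kb of exon (x axis, log2) of 19 of the highest unflagged protein-coding genes (y axis) in WT 1 (circles) and WT 2 (diamonds), with a dashed line at the limit of 6. WT 2 is the higher library for 17 of the 19 genes, and Cd48 shows the widest gap.

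Of these 19 genes, 17 were higher in WT 2, and the SDs ran from 0.0045 for Aamp to 0.44 for Cd48. The other 2 were Rgs18 and Fam107b. Without length scaling Cd34 led the unflagged genes with a deposited mean of 9.47, ahead of Set with 9.38 and Mcm6 with 8.87.

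The surface genes that define an LT-HSC sort did not follow the usual pattern at the RNA level. Cd34 had deposited values of 9.44 and 9.50, and its level per kb of 6.60 ± 0.04 was above 98.9% of the 945 genes. Cd48 had 6.49 and 7.11 and a level per kb of 6.55 ± 0.44, above 98.8%. Slamf1, the gene of CD150, had 3.76 and 3.33 and a level per kb of 0.93 ± 0.30, above 49.4%. Both WT libraries showed this order, high Cd34 and Cd48 and a Slamf1 level near the median of 0.95 over the 945 genes. Of these genes 459 had a deposited mean under 3, so the median and the ranks rest in part on unreadable levels. Of the 486 readable genes 19 were high and 203 intermediate, and no rank among them was taken. The difference between Cd48 and Slamf1 per kb was 5.10 in WT 1 and 6.15 in WT 2. Its SD of 0.74 does not cover the choice of exon length. That between Cd34 and Slamf1 was 5.43 and 5.92. The libraries are therefore referred to by their label. RNA levels are not surface protein, the gate is not given, and cells of other types in the sort and RNA of the labelled cells cannot be told apart in bulk RNA.

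The other SLAM receptors, which bind each other or CD48 between blood cells, were intermediate, low or flagged. Ly9 had 5.32 and 5.002 (3.44 ± 0.23 per kb) and Cd84 had 6.14 and 5.89 (3.36 ± 0.17), which cannot be ordered. Cd244a, the receptor of CD48, had 5.05 and 5.13 (2.81 ± 0.06). Slamf7, Slamf8 and Slamf9 had deposited means under 3, and Slamf6 was flagged. Thus 1 member was high, 2 intermediate and 5 low of 9 in the table.

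Adhesion genes of stem cells and platelets were mostly intermediate. Selp, the P-selectin of platelets, had 6.03 and 5.85 (3.80 ± 0.12 per kb), and the junction gene F11r had 6.21 and 5.91 (4.65 ± 0.21). Cavin2, a coat protein of caveolae, had 4.60 and 5.26 (3.31 ± 0.47) and was among the genes that differed most between the libraries. The homing receptor Cxcr4 had 1.80 and 1.89, in the range that cannot be read, and Ptprc, which encodes CD45, was flagged. The megakaryocyte and platelet list shares 3 genes with the lists of stem cell genes, and 5 of its 10 genes are in the table. All 4 unflagged members were high or intermediate, against 223 of the 945 genes with a value and no flag. These 4 had a median level per kb of 4.47, against 0.95 over the 945, of which 459 had a deposited mean under 3. So few members were not tested.

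Regulators of blood cell fate covered a wide range of levels. Of 21 members in the table (transcription factors, Polycomb genes and the Notch pathway), 5 were intermediate, 14 low and 2 flagged. Gfi1b, a repressor of stem cells and of the erythroid and megakaryocyte lineages, was the highest with 6.02 and 5.997 (5.14 ± 0.02 per kb). Egfl7, a secreted modulator of Notch, had 6.52 and 6.60 (4.72 ± 0.06), and the factor Usf1 had 6.03 and 5.90 (4.48 ± 0.09). Gata3, known in T cells and also in stem cells, was barely intermediate with 5.37 and 4.88 (3.13 ± 0.35). Gfi1b exceeded Gata3 per kb by 1.77 in WT 1 and 2.24 in WT 2.

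The catalytic and partner subunits of Polycomb complex 1 differed. Rnf2, which attaches ubiquitin to histone H2A, had 6.21 and 6.09 (4.10 ± 0.09 per kb), and Bmi1, known for its need in stem cell renewal, had 3.20 and 3.04 (1.13 ± 0.11). The difference was 2.96 in WT 1 and 2.998 in WT 2. Low but readable were also Ikzf2 (5.37 and 4.75), Mllt10 (4.29 and 4.39), Hlx (3.50 and 3.69), and the receptor gene Notch1 (3.43 and 3.26). Notch1 has a long transcript and stood at -0.48 per kb, above 29.6% of the 945 genes. That base includes 459 genes with a deposited mean under 3. Rxra, Zbtb18, Mybl1, Prox1 and Sox17 had deposited means under 3.

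The unflagged markers of T, NK and B cells had no readable level, whereas single erythroid, myeloid and mast cell genes did. Over all protein-coding genes, 459 of the 945 with a value and no flag also had a deposited mean under 3. The lists are short, and whether they differ from that share was not tested. Of the 9 T and NK cell markers in the table, 8 had deposited means between 1.04 and 2.01, in the range that cannot be read. They included the receptor chain gene Cd247, the kinase gene Zap70 and the co-receptor genes Cd28, Ctla4 and Icos. The 9th, Il2ra, was flagged. None was listed at 0. The B cell genes Cr2, Fcmr and Fcrla were at 0.28 to 1.73, and Fcrlb was flagged. Among erythroid genes Ackr1 had 1.89 and 1.86, whereas the iron reductase Steap3 had 4.01 and 4.38 (1.68 ± 0.26 per kb).

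Myeloid genes were not uniform. The Fc receptor Fcgr3 had 4.83 and 5.21 (4.23 ± 0.27 per kb) and the inhibitory Fcgr2b had 4.24 and 4.54 (1.86 ± 0.22), a difference per kb of 2.33 in WT 1 and 2.41 in WT 2. Fcgr4, Cxcr1, Cxcr2 and Card9 had deposited means under 3. Fcer1g, Slc11a1 and Slc40a1 were among the 4 flagged of 10 members, and only 2 members had a readable level. The mast cell and basophil gene Fcer1a, the IgE-binding chain, had 3.14 and 3.07 (3.11 ± 0.05 per kb), just inside the intermediate class, and Il1rl1 had 1.67 and 1.66. In the stromal and endothelial list no unflagged member had a deposited mean above 1.24, and the collagen genes Col3a1 and Col5a2 and the matrix gene Fmod were listed at 0. Igfbp2, Dpt and Prelp of that list were flagged.

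**Figure D5:**
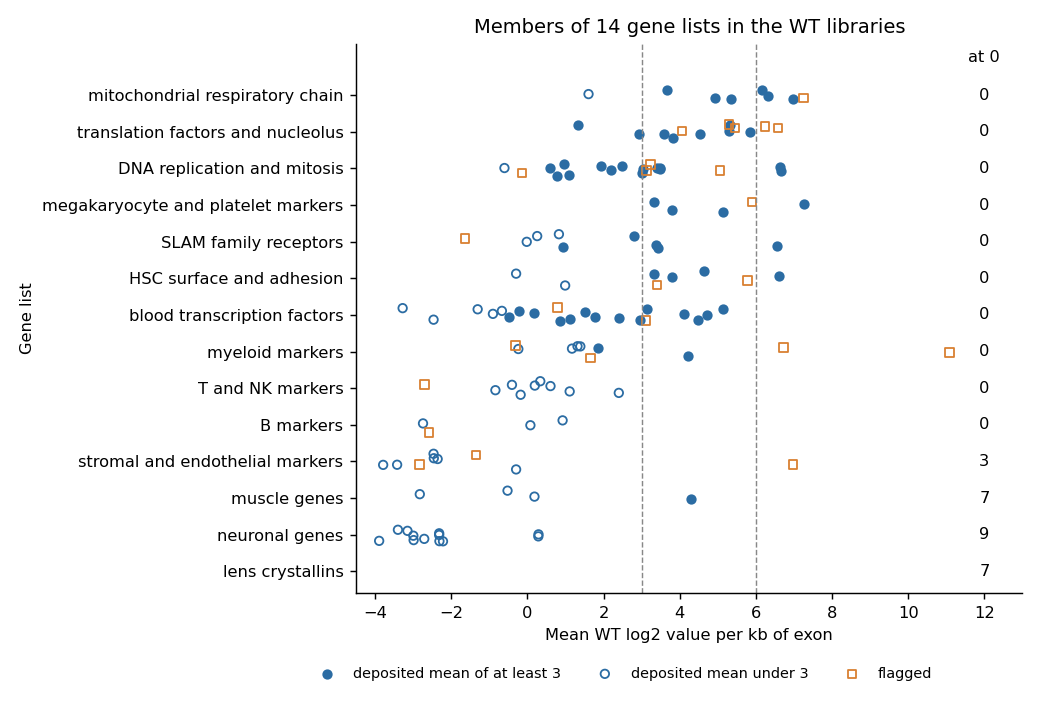
Mean WT level per kb (x axis, log2) of the members of 14 gene lists (y axis), with dashed lines at 3 and 6; the number at the right counts members listed at 0. Filled circles have a deposited mean of at least 3, open circles under 3, and orange squares are flagged; T, NK and B cell markers show no filled circle.

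Of the replication genes Mcm3 and Mcm6 were high, and genes of mitosis were intermediate to low. Mcm6 and Mcm3, subunits of the helicase that opens DNA for replication, had 8.85 and 8.88 (6.64 ± 0.02 per kb) and 8.51 and 8.60 (6.65 ± 0.06). Mcm10, which helps to start the helicase, was low with 5.33 and 5.50 (2.47 ± 0.12). The primase subunit Prim2 had 5.95 and 6.02 (3.41 ± 0.05). The mitotic kinase Nek2 (3.49 per kb) and the kinetochore genes Nuf2 (3.004) and Cenpl (3.03) were intermediate. Cenpf had 5.97 and 5.80 (1.94 ± 0.12 per kb) and Aspm, a spindle pole gene, 4.10 and 4.14 (0.59 ± 0.03). Mcm6 exceeded Cenpf per kb by 4.60 in WT 1 and 4.80 in WT 2, and Aspm by 6.06 and 6.05. Of 19 members 2 were high, 5 intermediate, 8 low and 4 flagged.

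Unflagged genes of basic cell functions differed in level from list to list. The respiratory chain list had 3 high, 3 intermediate, 1 low and 1 flagged of 8 members, with a median level per kb of 5.36 over the unflagged 7. The translation and nucleolus list had 6 intermediate, 2 low and 5 flagged of 13, with a median of 4.18. Its highest unflagged members were the aspartyl-tRNA synthetase Dars (7.89 and 8.04, 5.84 ± 0.10 per kb), the elongation factor Eef1b2 (6.48 and 6.82, 5.31 ± 0.24) and Farsb (6.58 and 6.81, 5.30 ± 0.16). All 4 genes of ribosomal proteins in the table (Rpl7, Rpl7a, Rpl31 and Rpl37a) were flagged. The chaperone list had a median of 4.61 per kb over 7 unflagged members. The unflagged members had medians under 3 for splicing and RNA binding (2.38, 5 of 10 flagged) and proteasome and ubiquitin genes (2.77, 3 of 13 flagged). The flag took 29 of the 31 protein-coding genes with a WT mean of at least 9. The medians thus describe the members left and not the level of a whole list. Flagged genes were 12.6% of all protein-coding genes.

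Genes of survival and DNA repair were mostly low or flagged. Of 16 members in the table, 2 were intermediate, 9 low and 5 flagged. The high or intermediate share was 12.5%, against 15.2% of all protein-coding genes. Casp8, the initiator protease of receptor-driven cell death, had 7.31 and 7.25 (5.75 ± 0.04 per kb), and the DNA break sensor Parp1 had 7.37 and 7.51 (5.04 ± 0.10). The anti-apoptotic gene Bcl2 had 6.01 and 6.11 (2.87 ± 0.07 per kb), and Cflar, which restrains Casp8, had 5.50 and 5.27 (1.72 ± 0.16). Casp8 was thus above Cflar per kb in both libraries.

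Genes of other tissues were mostly silent. Of 77 distinct genes from lists of lens, muscle, liver and plasma, intestine, neurons and epithelia, 46 were listed at 0 (59.7%), against 22.8% of all protein-coding genes. Neuronal genes were at 0 in 9 of 21 cases, and the other 12 had deposited means of at most 1.23. Muscle genes were at 0 in 7 of 11 cases, among them Mstn, Des and the acetylcholine receptor genes Chrnd and Chrng. The exceptions with readable levels were Csrp1 (5.15 and 5.38), a LIM protein also found outside muscle, Surf1 (5.13 and 5.29), which assembles cytochrome oxidase, Itih5 (6.61 and 6.23), and the protease gene Ctse (4.62 and 4.60). Liver and plasma genes were at 0 in only 4 of 12 cases, and another 4 were flagged (33.3%, against 12.6% of all protein-coding genes). Of 27 olfactory receptor genes 19 were at 0 and 1 was flagged, and the highest of the others had a mean of 1.41.

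Of the 334 silent genes, 89 (26.6%) lay in 14 runs of at least 5 neighbouring silent genes. Whether this is more than the number of silent genes alone would give was not tested, and the longest run of genes with a value held 37. The longest silent run was that of 10 Serpinb genes of skin and other epithelia, from Serpinb5 to Serpinb2 (chromosome 1, 106861173 to 107535478). Next came 8 genes on chromosome 2 (25737009 to 25918273) with the lipocalins Lcn3, Lcn11 and Lcn9, and 8 from Cntnap5a onwards on chromosome 1 (115684756 to 118202307). A run of 7 held the crystallin genes Cryge, Crygd, Crygc, Crygb and Cryga (chromosome 1, 65012689 to 65119558). Many of these neighbours are copies of each other. The median exon length was 2530 bases in the silent class, 2642 in the high, 3572.5 in the intermediate and 5312 in the low class.

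The genes that differed most between WT 1 and WT 2 at a mean of at least 3 were of varied function. Serpine2, a protease inhibitor, had 3.83 and 4.77, and the stress kinase Mapkapk2 had 3.07 and 4.003. Dgkd (3.68 and 4.37), Cavin2 (4.60 and 5.26) and the phosphatase regulator Ppp1r15b (3.85 and 4.50) were also higher in WT 2, and the lymphocyte adaptor Lax1 (4.58 and 3.92) was higher in WT 1. The WT values of these genes therefore have SDs of 0.46 to 0.66, against a median SD of 0.10 in this range.

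Some groups leaned to 1 library. All 8 readable genes of translation and the nucleolus and all 6 of the respiratory chain were higher in WT 2, with median differences (WT 1 minus WT 2) of -0.22 and -0.16. Of the 14 readable regulators of blood cell fate 9 were higher in WT 1, with a median of 0.13. Over all 486 readable genes 265 were higher in WT 2 and the median difference was -0.02. Exon length moved with this difference: among the 122 genes with the shortest exons (742 to 3408 bases) 82 were higher in WT 2 with a median of -0.10, and among the 122 with the longest (7808 to 41324 bases) 60 were, with a median of 0.01. The parts of length and of level in the lean of these groups were not tested. With 1 library on each side, these values describe the 2 libraries and not a property of WT cells.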

How the data were processed

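RNA of sorted WT LT-HSCs was described in 2 libraries, grouped by their sample titles. Each gene has 1 deposited log2 value in each library, and the transform the authors used is not stated. HISAT2 2.2.1, featureCounts, DESeq2 and GRCm38 are named without order, per the submitters' processing notes. The incomplete last line was left out. Symbols were matched to GENCODE M21 (GRCm38). Of 4167 genes, 98.5% matched once, and 50 without a match and 13 with several entries were left out. Exon length is the union of a gene's exons. Values were used as deposited, with no pseudocount and no test. Class limits were 6 and 3 per kb. Named genes were the 20 highest per kb, members of 32 gene lists, the 6 with the largest difference between WT 1 and WT 2, the 6 highest flagged, and 3 on each side of a limit, without predicted models. Some items are not reported here. Members and lists were chosen with earlier results of these data known. Readable levels (a mean of at least 3) were set after the values were seen. Promoters came from RefSeq (GRCm38.p6), taking the start nearest to the GENCODE gene start on the same strand. Calculations used Python 3.11.15, numpy 2.4.6 and pandas 2.3.3 and were tested on simulated data.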

Additional observations from a re-analysis of the deposited data

How the results depend on the processing

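No paired analysis was possible because the results are levels of 1 group and come from no test. The number of high genes was 19, and 18 to 20 when either WT library was left out. It was 57 with both limits 1 lower, 6 with both 1 higher, 31 with the longest transcript as length, 62 with flagged genes counted and 137 without length scaling. Intermediate genes were 204, and 115 with both limits 1 higher and 349 without length scaling. Low genes were 722, and 459 without length scaling. No alternative enters the rule for the 334 silent genes, so that number was fixed. Flagged genes were 185, 207 for a margin of 0.5 and 156 for a margin of 2. The median difference between the libraries was 0.0532, and 0.142 for means of at least 3 and 0.00307 with all gene types. Leaving out 1 library moved no list median by more than the difference between WT 1 and WT 2 or the median SD. Each level is the mean of these libraries, so that outcome was nearly fixed in advance and does not measure stability. Without length scaling all 30 list medians compared moved, so the class of a gene depends on its exon length. Reads are not in the table, so low levels have no limit of detection here.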

Other observations

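Genes that do not encode proteins were more often listed at 0. Of 2640 such genes with a single annotation entry, 1868 (70.8%) were listed at 0, against 22.8% of the protein-coding genes. The share at 0 was 93.8% of 273 miRNA genes, 87.3% of 102 snoRNA genes and 73.3% of 352 lincRNA genes. The protocol selected polyadenylated RNA, so these shares do not measure mature miRNAs or snoRNAs. Gas5, the host transcript of several snoRNAs that is known to build up in growth-arrested cells, was among the highest with 7.31 in WT 1 and 7.33 in WT 2 (chromosome 1; 5.41 per kb). Tmem250-ps had 8.33 and 8.46 (7.08 per kb) and the pseudogene Eif4a-ps4 had 6.89 and 7.21, but pseudogenes can share reads with their parent genes. The lincRNA Ino80dos, which is transcribed across from Ino80d, had 4.59 and 4.04. Ino80d itself had 4.16 and 3.98. Whether reads were counted by strand is not given in the sources used here, so overlapping pairs are uncertain.

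The share of flagged genes varied among the types that do not encode proteins. It was 6.03% of 713 processed and 9.80% of 102 unprocessed pseudogenes, with none of the 12 transcribed processed and 18 transcribed unprocessed ones. It was 7.32% of 41 sense intronic genes, 4.76% of 63 processed transcripts, 1.99% of 251 antisense genes and 1.14% of 352 lincRNA genes. Among protein-coding genes it was 12.6%. A gene at 0 cannot be flagged, and 73.8% of the processed and 73.5% of the unprocessed pseudogenes were at 0. The types with 12 and 18 genes are too small for a share to be read. The immediate early genes Atf3, Ier5, Ptgs2 and Dusp10, which often rise during cell isolation, had deposited means under 3, Rgs2 had 4.92 in both libraries, and Btg2 and Rgs1 were flagged.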
